A study of Mus musculus with 6 samples.

Results

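The genes of the mitochondrial ribosome were compared between mouse chondrocytes with a Mfn2 knockout and wild-type chondrocytes, in bulk RNA sequencing of 6 libraries. The members were all 78 rows of the count table, of 23867 genes, whose symbol is Mrpl or Mrps followed by a number and at most 1 letter. By symbol, 49 belonged to the large subunit and 29 to the small subunit. The rule reads symbols and uses no measured value, although the set was picked for description with earlier results of these data known. All 78 passed the filter on low counts, with 250 to 2360 counts per member and library. The wild-type group (genotype label MFN2wt) held the libraries WT1, WT2 and WT3. The knockout group (genotype label MFN2Col2a1-/-) held the libraries CRE1, CRE2 and CRE3, whose column names show the group but not which sample each is. The sources used here do not give strain, age, sex, culture or the driver of the deletion. The label joins Mfn2 to Col2a1, a collagen gene of cartilage, and does not say more.

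Mitochondria keep a ribosome of their own, which translates the few proteins encoded by mitochondrial DNA, all of them membrane subunits of the respiratory chain and ATP synthase. Its ribosomal RNAs come from mitochondrial DNA, while every one of its proteins is encoded in the nucleus, made in the cytosol and imported. Many of these proteins have a counterpart in the bacterial ribosome, and the others are found in mitochondria alone. Defects in several of them cause combined respiratory chain deficiency in humans.

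The CRE libraries held 31481779 to 37814723 counts each and the WT libraries 39267487 to 40152687. A value after ± is the SD of 3 libraries. Levels are CPM, counts brought to a common total with TMM factors, which assume that most genes do not change. With these factors 62.7% of the genes tested were called, so that assumption is not secure here. The factors were 0.924 to 0.936 in the CRE libraries and 1.07 to 1.08 in the WT libraries. A log2 fold change above 0 means a higher level in the knockout, and SE is its standard error. Since no label names the animals or cultures behind each library, the p-values cover the spread among these libraries, which may be technical. Mfn2, which encodes an outer-membrane protein that fuses mitochondria, stood at 56.5 to 64.0 CPM in the CRE libraries against 106 to 108 CPM in the WT libraries (log2 fold change −0.84, SE 0.046, edgeR adjusted p = 2.24e-10). All 15 chondrocyte markers passed the filter, and their summed level was 3070 to 3199 CPM with the knockout against 8814 to 8998 CPM without it, with 14 lower and 1 higher. All 16 macrophage markers were lower, with a summed level of 349 to 360 CPM against 3316 to 3343 CPM and none at 0 in all libraries. All 16 markers of dividing cells were lower as well, with 183 to 188 CPM against 611 to 626 CPM. In bulk RNA, fewer cells of a type and less RNA per cell cannot be told apart. The part of these marker shifts in the results on ribosomal proteins was not tested.

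Changes among the mitochondrial ribosomal proteins were small, and more of them were upward than downward with TMM factors. Of the 78 members, 32 rose and 7 fell at an adjusted p under 0.05 (edgeR quasi-likelihood test), and 39 were not called. Over all 15028 genes tested, 62.7% were called, 30.7% upward and 32.1% downward. The members' log2 fold changes ran from −0.37 to 0.62 with a median of 0.14 and an SD over genes of 0.21. Over all genes tested the median was −0.021 and the SD 1.18. The median size of a change, regardless of sign, was 0.16 in the members and 0.34 in all genes tested. A change of at least 1.5-fold was called in 1 member, Mrpl14, and in 29.9% of all genes tested. The knockout and wild-type libraries did not overlap for 39 of the 78 members, against 67.1% of all genes tested.

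Changes of this size depend on how the libraries are scaled. Without TMM factors, by total counts alone, 11 members rose and 25 fell, and the median of the members was −0.073 where that of all genes was −0.23. Over all genes tested that scaling called 18.6% upward and 50.8% downward, 69.3% in either direction. With upper-quartile factors 21 members rose and 11 fell, against 64.2% of all genes called, 24.4% upward and 39.8% downward. With a trend on gene length taken out, 34 members rose and 8 fell, against 63.1% of all genes called. The 20 most abundant genes took 17.5% to 18.0% of the counts of each CRE library and 12.9% to 13.2% of each WT library. The count of falls also rested on single libraries: it was 2 without CRE2, and 4 without CRE3, WT1 or WT3. In those fits 56.7% to 59.3% of all genes tested were called, in place of 62.7%. Over 21 settings, the main one included, 9 members were called higher in each setting and 1 was called lower in each. No member was called higher in 1 setting and lower in another.

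**Figure D1:**
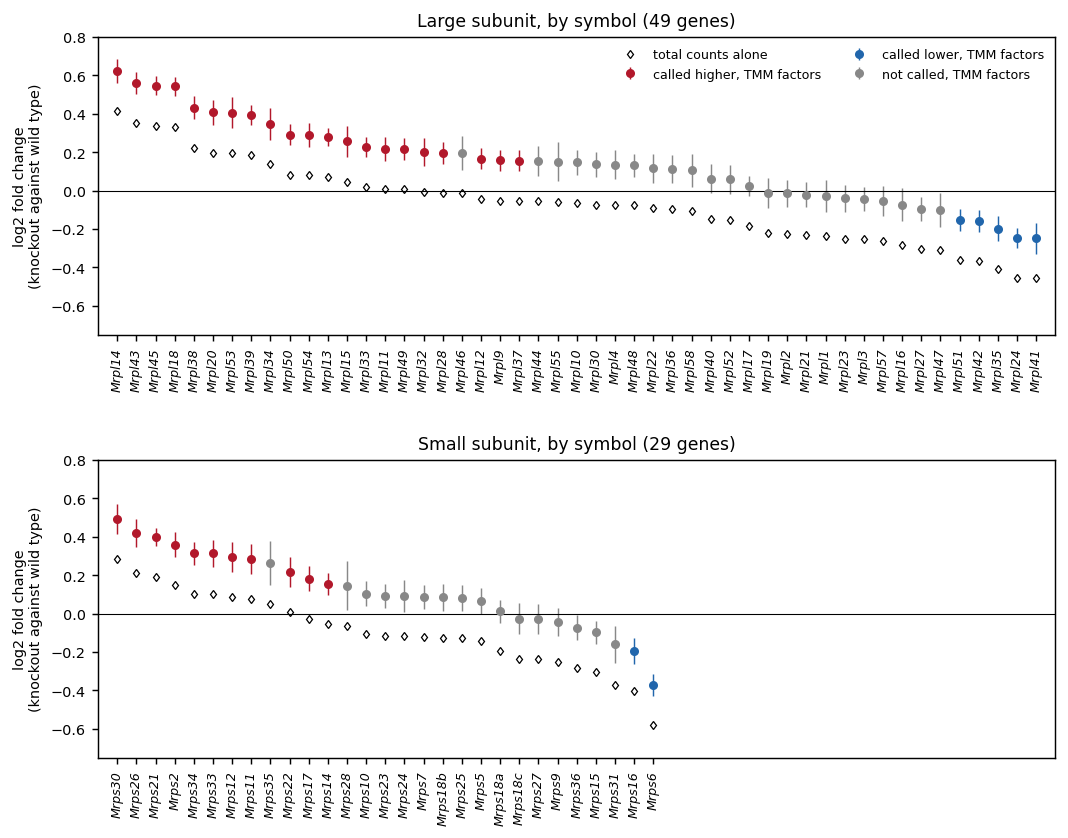
Log2 fold change (knockout against wild type, vertical axis) of the 49 large and 29 small subunit members, ordered by value. Filled points are edgeR estimates with TMM factors and bars are 1 SE. Red points were called higher, blue points lower and grey points not called. Open diamonds are the estimates from total counts alone, which lie below the filled points for every member shown.

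Both subunits held rises and falls. In the large subunit 21 members rose, 5 fell and 23 were not called, with a median log2 fold change of 0.15 and a range of −0.25 to 0.62. In the small subunit 11 rose, 2 fell and 16 were not called, with a median of 0.091 and a range of −0.37 to 0.49. With total counts alone the large subunit gave 8 rises and 16 falls and the small subunit 3 rises and 9 falls. Among all genes tested, 30.7% rose and 32.1% fell with TMM factors, against 18.6% and 50.8% with total counts alone. The ratio of summed large to summed small subunit counts is taken within a library, so it does not depend on scaling. On the log2 scale it was 0.951, 0.932 and 0.989 in CRE1, CRE2 and CRE3, and 0.911, 0.941 and 0.907 in WT1, WT2 and WT3. The groups overlapped: CRE2 lay below WT2. The mean difference was 0.037, against SDs of 0.029 among CRE and 0.019 among WT libraries. Counted by place in the assembled ribosome, with Mrps30 and Mrps18a in the large subunit and Mrps36 left out, the ratio still overlapped between the groups, with a mean difference of 0.044.

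The summed level of all members was 2074, 2025 and 1980 CPM in CRE1, CRE2 and CRE3, and 1814, 1824 and 1859 CPM in WT1, WT2 and WT3. Every knockout library lay above every wild-type library on this scale. As a share of all counts the order was the reverse, with 0.192%, 0.189% and 0.184% for CRE1 to CRE3 and 0.195%, 0.196% and 0.200% for WT1 to WT3. The direction of the summed level thus turned with the scaling, a choice that ratios within a library do not need.

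**Figure D2:**
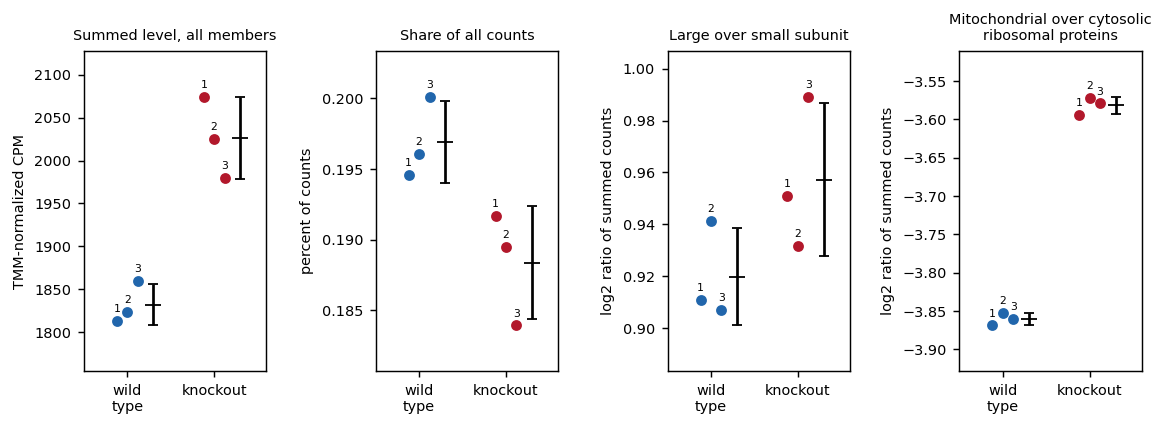
Each point is 1 library, numbered as in its name, in the wild type (blue) and the knockout (red). Black bars are the mean and SD of 3 libraries. From left to right the vertical axes are the summed TMM-normalized CPM of the members, their percent of all counts, the log2 ratio of large to small subunit counts and the log2 ratio of mitochondrial to cytosolic ribosomal protein counts. The groups are apart for CPM, for percent and for the mitochondrial to cytosolic ratio, in opposite directions for CPM and percent, and overlap for the large to small ratio.

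The largest rises in the large subunit were those of Mrpl14, Mrpl43, Mrpl45 and Mrpl18. Mrpl14 encodes uL14m, a protein with a bacterial counterpart on the face that meets the small subunit. Its level was 29.8, 30.0 and 28.5 CPM in CRE1, CRE2 and CRE3 and 20.4, 19.0 and 17.9 CPM in WT1, WT2 and WT3 (1.54-fold, log2 fold change 0.62, SE 0.063, adjusted p = 3.88e-07). All 3 knockout libraries were higher than any wild-type library. Mrpl43 encodes mL43, a protein specific to mitochondria. It stood at 36.2, 38.3 and 34.3 CPM against 24.6, 24.6 and 24.8 CPM (1.47-fold, log2 fold change 0.56, SE 0.056, adjusted p = 3.37e-07). The WT libraries differed by little here, and each CRE library was higher.

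Mrpl45 encodes mL45, which sits at the exit of the peptide tunnel and anchors the ribosome to the inner membrane. Its level was 47.7, 45.4 and 45.9 CPM in CRE1 to CRE3 against 32.1, 30.7 and 32.3 CPM in WT1 to WT3 (1.46-fold, log2 fold change 0.55, SE 0.049, adjusted p = 9.12e-08). Mrpl18 encodes uL18m, a protein of the central protuberance at the top of the large subunit. It stood at 46.4, 44.6 and 45.8 CPM against 31.4, 30.5 and 32.0 CPM (1.46-fold, log2 fold change 0.54, SE 0.048, adjusted p = 8.09e-08). For both genes the gap between the groups was many times the spread within either. Mrpl38, a mitochondria-specific protein of the central protuberance, stood at 29.0, 29.0 and 26.8 CPM against 20.4, 21.4 and 21.1 CPM (log2 fold change 0.43). Mrpl39, a protein near the tunnel exit, stood at 50.6, 52.8 and 47.4 CPM against 38.3, 37.1 and 39.6 CPM (0.39). The groups did not overlap for either, and both were called higher in every setting.

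In the small subunit by symbol the largest rise was that of Mrps30. Its level was 27.8, 25.1 and 25.0 CPM in CRE1, CRE2 and CRE3 and 18.6, 16.6 and 20.2 CPM in WT1, WT2 and WT3 (1.41-fold, log2 fold change 0.49, SE 0.076, adjusted p = 4.04e-05). The groups did not overlap. Despite its symbol, the protein is mL65 and lies in the large subunit of the assembled ribosome. Mrps26, which encodes mS26, stood at 20.7, 19.8 and 19.4 CPM against 14.3, 14.3 and 16.1 CPM (log2 fold change 0.42, SE 0.073, adjusted p = 1.27e-04). Mrps21, which encodes bS21m and has a bacterial counterpart, stood at 63.2, 66.7 and 65.8 CPM against 52.0, 47.4 and 49.2 CPM (log2 fold change 0.40, SE 0.047, adjusted p = 2.38e-06). For both genes the lowest CRE library lay above the highest WT library. Mrps2, which encodes uS2m, rose with TMM factors (log2 fold change 0.36, SE 0.064, adjusted p = 1.52e-04) but was not called with total counts alone (0.15).

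**Figure D3:**
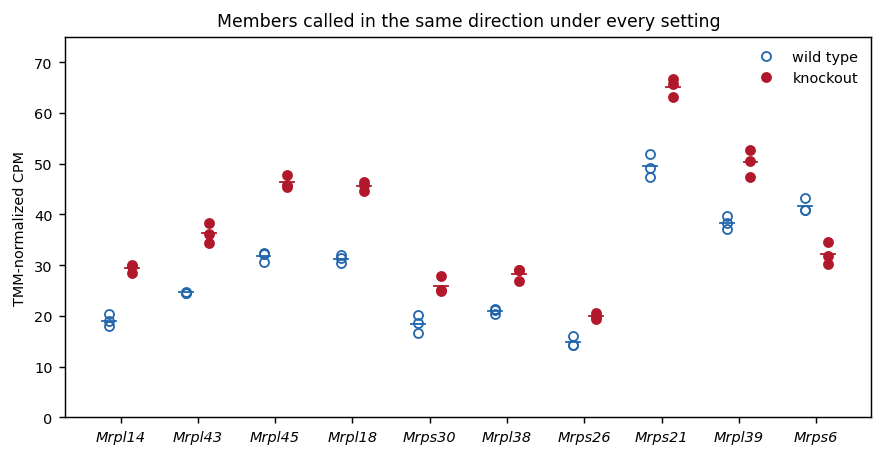
TMM-normalized CPM (vertical axis, from 0) in each library of the 10 members called in the same direction under every setting. Open blue points are wild-type libraries, filled red points are knockout libraries and short lines are means. The groups are apart for all 10 genes: 9 are higher in the knockout and Mrps6 is lower.

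The clearest fall was that of Mrps6, the counterpart of bacterial S6 in the small subunit. Its level was 34.6, 31.7 and 30.2 CPM in CRE1, CRE2 and CRE3 and 41.0, 43.2 and 40.9 CPM in WT1, WT2 and WT3, a 1.30-fold difference (log2 fold change −0.37, SE 0.057, adjusted p = 3.32e-05). All knockout libraries were lower than any wild-type library, and the call held in each setting. Mrps16, the counterpart of bacterial S16 and a known gene of respiratory chain deficiency in humans, also fell (log2 fold change −0.20, SE 0.069, adjusted p = 0.0220). Its levels of 22.7, 19.4 and 19.9 CPM in CRE1 to CRE3 lay just under the 24.2, 23.6 and 23.1 CPM of WT1 to WT3.

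In the large subunit Mrpl41 fell (log2 fold change −0.25, SE 0.081, adjusted p = 0.0151), with 17.6, 14.9 and 18.5 CPM against 19.6, 19.5 and 21.2 CPM. Mrpl24, a protein at the tunnel exit, stood at 43.7 ± 2.59 CPM in the knockout against 51.8 ± 1.85 CPM and fell (log2 fold change −0.25, SE 0.052, adjusted p = 7.10e-04). Mrpl35 fell by 0.20, Mrpl42 fell by 0.16 and Mrpl51 fell by 0.15 on the log2 scale, with adjusted p of 0.0135, 0.0256 and 0.0264 in edgeR's test. The 5 falls of the large subunit were all smaller in size than that of Mrps6. Leaving out CRE2 ended the calls of Mrpl41, Mrpl35, Mrpl42, Mrpl51 and Mrps16, and leaving out WT1 ended those of Mrpl35, Mrpl42 and Mrps16. The call of Mrps16 was also lost without CRE3 or WT2, that of Mrpl42 without CRE3 or WT3, that of Mrpl51 without CRE3, WT2 or WT3 and that of Mrpl41 without WT3. In DESeq2, Mrpl35, Mrpl42, Mrpl51 and Mrps16 were not called.

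Members were also ordered by their place in the ribosome. Of the 4 proteins of the stalks and the site where translation factors bind, Mrpl12 (log2 fold change 0.17) and Mrpl11 (0.22) rose with TMM factors. Mrpl10 (0.15, adjusted p = 0.0672) and Mrpl1 (−0.029, adjusted p = 0.779) were not called in edgeR's test. With total counts alone none was called higher, Mrpl1 was called lower (−0.24), and Mrpl12 (−0.044) and Mrpl10 (−0.062) turned below 0. Around the tunnel exit and the membrane side, 2 of 8 rose, 1 fell and 5 were not called, with a median of 0.070. In the central protuberance, 2 of 9 rose, 1 fell and 6 were not called, with a median of 0.13. These counts stand beside 30.7% of all genes tested called higher and 32.1% called lower. Mrps12, the counterpart of the bacterial decoding-centre protein S12, rose with TMM factors (0.29, SE 0.076, adjusted p = 0.00330 in edgeR's test) and was not called with total counts alone (0.086). The median of all members was 0.14. With total counts alone the medians of the tunnel exit and the central protuberance were −0.14 and −0.077.

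Members were further split by origin. Of 46 members with a bacterial counterpart, 18 rose and 4 fell, with a median of 0.13. Of 31 members specific to mitochondria, 14 rose and 3 fell, with a median of 0.16. With total counts alone these became 4 rises and 17 falls among the former and 7 rises and 7 falls among the latter. Over all genes tested, 30.7% rose and 32.1% fell with TMM factors, and 18.6% rose and 50.8% fell with total counts alone. Mrps36, whose product is held to belong to another mitochondrial enzyme complex, was in neither class, was not called (−0.075, adjusted p = 0.338 in edgeR's test) and fell with total counts alone (−0.28).

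The mitochondrial ribosome also holds proteins without an Mrp symbol, and 5 of these were listed. Gadd45gip1, which encodes mL64 of the large subunit, had a larger estimate than any of the 78 members. Its level was 26.2, 26.4 and 22.1 CPM in CRE1 to CRE3 against 13.9, 14.1 and 14.4 CPM in WT1 to WT3 (log2 fold change 0.82, SE 0.076, adjusted p = 1.42e-07). It was also higher with total counts alone (0.61). Ptcd3 (0.27) and Aurkaip1 (0.22) rose with TMM factors and were not called with total counts alone. Dap3 (0.11, adjusted p = 0.0749) and Chchd1 (0.022, adjusted p = 0.793) were not called in edgeR's test, and their estimates turned to −0.10 and −0.19 with total counts alone.

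Several of the members that changed most share exon bases with a neighbouring gene that changed the same way. In the GENCODE M21 annotation, 33 of the 78 members share exon bases with another gene, 24 of them with a gene of the count table. The sources used here do not say whether the counting used strand, so reads from such bases cannot be assigned to 1 of the genes with certainty. Mrpl14 shares 106 bases with Tmem63b on the opposite strand, an ion channel gene that rose from 39.2 to 62.1 CPM (log2 fold change 0.67). Mrpl18 shares 141 bases on the opposite strand with Tcp1, a subunit of the cytosolic chaperonin, which rose from 213 to 365 CPM (0.77). Mrpl43 shares 507 bases on the opposite strand with Twnk, the helicase of mitochondrial DNA, which rose from 16.0 to 27.8 CPM (0.80).

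Mrps6 shares 159 bases on the same strand with Slc5a3, a myo-inositol transporter gene, which fell from 248 to 151 CPM (log2 fold change −0.72). Mrps34 rose with TMM factors (0.31). It shares 763 bases on the same strand with Nme3, which was not called (0.053). On the opposite strand it shares 1309 bases with Mapk8ip3, which rose (0.64). The opposite pattern was seen for Mrpl24, which fell while Rrnad1, with 594 shared bases on the opposite strand, rose with TMM factors (0.23). Over 21 pairs whose partner was tested and is no member, the partner was higher in 9, lower in 4 and not called in 8, near the 62.7% called over all genes tested. Of these pairs, 9 had a called member. In these the partner was called the same way in 5, the other way in 1 and not called in 3. Among all genes tested 30.7% were called higher and 32.1% lower, and 9 pairs are too few to compare with these shares. Mrpl45, Mrpl38, Mrpl39 and Mrps21 share exon bases with no other gene in that annotation, and Mrps30 shares 623 with a gene that is not a row of the count table. The part of shared bases in the changes of the other members was not tested.

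**Figure D4:**
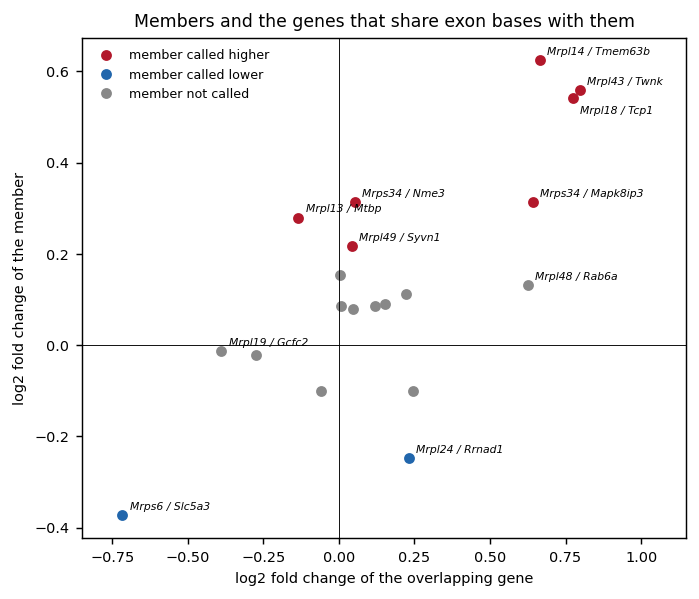
Log2 fold change of a member (vertical axis) against that of a gene that shares exon bases with it (horizontal axis), both knockout against wild type with TMM factors. Points are member and partner pairs, coloured by the member's call, and the pair of Mrpl27 and Eme1 (partner −2.03) lies outside the axis and is not drawn. Mrpl14, Mrpl18 and Mrpl43 sit at the top right with partners at 0.67 to 0.80, and Mrps6 at the lower left with Slc5a3.

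Promoter sequences are shown for 5 of the members called in the same direction in every setting, with and without the motifs searched: 4 that rose and 1 that fell. The stretches are the 120 bases before the annotated start, 5′ to 3′ in the direction of the gene, from RefSeq on build GRCm38.p6. Capitals mark CCGGAAG (the core bound by ETS factors such as GABP, a known regulator of nuclear genes for mitochondria), GGGCGG (the box bound by SP factors) and their reverse complements.
Mrpl43 (chr19:45006443-45006562, - strand): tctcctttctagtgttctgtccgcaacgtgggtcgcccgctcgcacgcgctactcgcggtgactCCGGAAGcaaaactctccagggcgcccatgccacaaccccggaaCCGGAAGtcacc
Mrps26 (chr2:130563637-130563756, + strand): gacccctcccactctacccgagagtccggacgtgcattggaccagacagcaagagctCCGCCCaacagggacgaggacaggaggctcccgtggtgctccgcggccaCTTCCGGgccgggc
Mrpl14 (chr17:45686229-45686348, + strand): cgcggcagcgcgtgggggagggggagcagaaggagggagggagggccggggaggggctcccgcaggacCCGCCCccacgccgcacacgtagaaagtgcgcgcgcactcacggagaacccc
Mrpl18 (chr17:12916092-12916211, - strand): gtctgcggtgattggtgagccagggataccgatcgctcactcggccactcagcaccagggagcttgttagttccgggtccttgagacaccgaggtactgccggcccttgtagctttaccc
Mrps6 (chr16:92058216-92058335, + strand): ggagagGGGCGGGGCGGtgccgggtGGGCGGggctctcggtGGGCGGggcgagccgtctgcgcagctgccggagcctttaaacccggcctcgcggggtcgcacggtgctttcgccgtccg

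Mrpl43 holds 2 copies of the ETS core in this stretch and Mrps26 holds 1 with an SP box. Mrpl14 holds an SP box, Mrpl18 neither motif, and Mrps6, which fell, a run of SP boxes with no ETS core. Mrpl45, Mrps30, Mrpl39 and Mrps21, which are not shown, also rose in every setting and hold neither motif in this stretch. Promoters from 250 bases before to 50 after the start were found for 69 of the 78 members and searched on both strands. CCGGAAG was present in 26 of 69 members (37.7%), against 18.3% of tested genes with a promoter and 9.93% of all genes in the promoter table. AAGATGGC, the core bound by YY1, was present in 12 (17.4%), against 4.90% and 3.19%. The palindromic NRF1 site of 10 bases was present in 3 members (4.35%), against 2.06% and 1.07%. GGGCGG was present in 49.3% of members against 65.9% and 38.2%. CACGTG was present in 7.25% of members and in 11.4% of tested genes, and TGATGNAA, a core of C/EBP and ATF pairs, in 0 members and 2.98% of tested genes.

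Split by call, the ETS core was present in 10 of 27 members called higher, 2 of 7 called lower and 14 of 35 not called. The NRF1 site was present in 3, 0 and 0 of the same groups, too few to compare. The YY1 core was present in 5, 2 and 5 of them, and in 0 of the 8 members with a promoter that were called higher in every setting. These matches are letters in a window, and binding was not measured.

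Levels between genes were compared as FPKM, which divides counts by the total and by gene length. The 3 highest members were Mrps21 (112 FPKM over the 6 libraries), Mrpl33 (75.8) and Mrpl42 (53.8). The 3 lowest were Mrpl4 (3.25), Mrpl14 (3.18) and Mrps35 (2.95). The range was thus 37.9-fold, although all members but Mrps36 are placed in 1 particle. The order of FPKM was nearly the same in knockout and wild type (Spearman's rho 0.981 across 78 genes that share libraries and lengths). Mrpl33 rose with TMM factors (log2 fold change 0.23, SE 0.052, adjusted p = 0.00147 in edgeR's test) and was not called with total counts alone (0.017). Mrpl4 (0.14, adjusted p = 0.129) and Mrps35 (0.26, adjusted p = 0.0582) were not called in edgeR's test. The estimate for Mrpl4 turned to −0.073 with total counts alone. Mrps35 stood at 9.24 CPM in WT2 and at 12.3 and 13.1 CPM in WT1 and WT3, and it was called higher in 6 of the 21 settings, among them without CRE3 (0.32) and without WT3 (0.36). Mrpl4 was called higher in 2, without CRE1 (0.20) and with the length trend taken out (0.17).

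Part of this order depends on the lengths behind the deposited FPKM. The deposited length of Mrpl14 is 7525 bases, 11.7 times that of its longest coding transcript in GENCODE M21, which has 645 bases. For Mrpl4 it is 8452 bases against 1288. In 8 of the 78 members the deposited length was over 2 times that of the longest coding transcript. Per kilobase of that transcript, Mrpl14 ranked 7 among the members in place of 77 by FPKM, while Mrps21, Mrpl33 and Mrpl42 kept ranks 1 to 3. Some deposited lengths were shorter than the transcript, as for Mrps16 (654 bases against 2572) and Mrpl32 (768 against 3013). Per kilobase of transcript Mrps16 ranked 57 in place of 9 by FPKM, and Mrpl32 ranked 64 in place of 16. The fold changes of the main fit do not use the deposited lengths. The setting with the length trend taken out and the fits on FPKM do. Across the 78 members, log2 fold change and deposited length had a Spearman's rho of −0.052, and over all tested genes of −0.043.

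Genes that act with the mitochondrial ribosome held rises and falls with TMM factors. The share called over all genes tested was 62.7%, with 30.7% upward and 32.1% downward. By total counts alone falls outnumbered rises in each list. The same held over all genes tested, with 69.3% called, 18.6% upward and 50.8% downward. Of 16 translation factors and membrane-insertion genes, 4 rose, 3 fell and 9 were not called (median 0.023), and with total counts alone 1 rose and 8 fell. Mtfmt, which formylates the initiator tRNA, rose to 15.5 CPM from 10.9 CPM (log2 fold change 0.51, SE 0.089, adjusted p = 1.15e-04 in edgeR's test). Oxa1l, which inserts the new chains into the inner membrane beside mL45, fell from 28.3 to 21.7 CPM (−0.38, SE 0.062, adjusted p = 6.05e-05).

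Of 29 genes for ribosome assembly and rRNA modification, 4 rose, 6 fell and 19 were not called (median 0.00038), and with total counts alone 1 rose and 16 fell. Rcc1l, an assembly factor, fell from 7.66 to 4.29 CPM (−0.83) and Mterf4, which works with an rRNA methyltransferase in assembly, rose from 7.60 to 10.8 CPM (0.51). Of 20 aminoacyl-tRNA synthetases and amidotransferase subunits, 3 rose, 5 fell and 12 were not called (median 0.011), and with total counts alone 3 rose and 10 fell. Yars2, the tyrosyl-tRNA synthetase, rose from 9.49 to 23.4 CPM (1.30, SE 0.075) and Gatb, of the glutaminyl-tRNA amidotransferase, fell from 14.5 to 8.30 CPM (−0.80, SE 0.096). Of 15 genes for mitochondrial RNA synthesis and processing, 6 rose, 1 fell and 8 were not called (median 0.096), and with total counts alone 3 rose and 6 fell. Among them were Grsf1, an RNA-binding protein of mitochondrial RNA granules, up from 56.2 to 86.9 CPM (0.63) and Hsd17b10, a subunit of mitochondrial RNase P, up from 33.1 to 45.7 CPM (0.46).

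Of the 13 proteins that this ribosome makes, 3 transcripts rose, 4 fell and 6 were not called (median −0.13), and with total counts alone 1 rose and 8 fell. ND1 rose (0.29) and ND6 fell (−0.35), both subunits of complex I. The medians of these lists stand beside −0.021 for all genes tested. With total counts alone they moved to −0.19 for translation factors, −0.21 for assembly, −0.20 for synthetases, −0.11 for RNA synthesis and −0.34 for the mitochondrially encoded transcripts, and those of all genes and of the members to −0.23 and −0.073.

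Most proteins of the cytosolic ribosome fell. Of 79 listed, 6 rose, 53 fell and 20 were not called with TMM factors (median −0.15), and 1 rose and 76 fell with total counts alone (median −0.36). Beside these stand 30.7% of all genes tested called higher and 32.1% called lower with TMM factors. By total counts alone the shares over all genes tested were 18.6% and 50.8%. Rpl3 stood at 341 CPM in the knockout against 546 CPM (log2 fold change −0.68, SE 0.035) and Rpl10 at 305 against 450.1 CPM (−0.56, SE 0.030), and both fell. Rps9 (−0.39) and Rps20 (−0.53) fell too. Fau, whose transcript encodes a small subunit protein fused to a ubiquitin-like part, rose (0.43), and is named as an exception after its value was seen. Many cytosolic ribosomal protein genes have near-identical processed copies elsewhere in the genome, so their single counts are uncertain.

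Within each library, the log2 ratio of mitochondrial to cytosolic ribosomal protein counts was −3.59, −3.57 and −3.58 in CRE1, CRE2 and CRE3, and −3.87, −3.85 and −3.86 in WT1, WT2 and WT3. The groups were far apart, with a mean difference of 0.28 (1.21-fold) and SDs of 0.011 and 0.0080. No test was run on this ratio, which is a sum over chosen genes. Macrophage markers (349 to 360 CPM against 3316 to 3343 CPM) and markers of dividing cells (183 to 188 CPM against 611 to 626 CPM) moved over the same libraries, and their part in the ratio was not tested. The median of the members exceeded that of the cytosolic proteins in each of the 20 other settings, by 0.25 to 0.32.

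**Figure D5:**
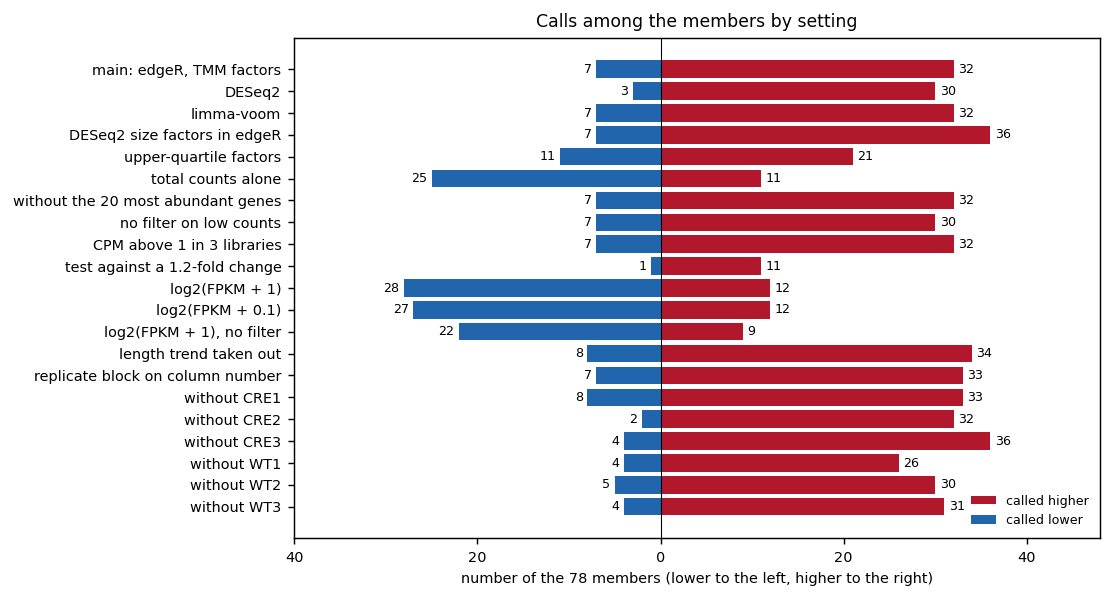
Number of the 78 members called higher (red, right of 0) and lower (blue, left of 0) under each setting, with the main one on top. Rises run from 9 to 36 and falls from 1 to 28. Falls outnumber rises with total counts alone and in the 3 fits on FPKM, which are scaled by total counts. In those settings 26.8% to 28.1% of the calls over all genes tested were upward.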

How the data were processed

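Total RNA of mouse chondrocytes was made into 6 libraries, 3 per genotype. Per the submitters' processing notes, the genome build was GRCm39 and the tools named are HTSeq, HISAT2 and fastp, without versions or roles. The sources used here do not give strand setting, annotation or filters. The authors deposited whole-number read counts per gene and FPKM values, which match each count over its library's total and a single length per gene. Wild-type columns matched the sample titles, and knockout columns (CRE1 to CRE3) matched their group only. No pair of same-group libraries was alike to within sampling noise (chi-square per degree of freedom 3.19 to 8.09), so each was counted separately.

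All 23867 genes were fitted with the two-sided quasi-likelihood test of edgeR 4.0.16 (R 4.3.3). TMM factors were used, and filterByExpr at a minimum count of 10 left 15028 genes. Calls are at a Benjamini-Hochberg adjusted p under 0.05 over all of these, and the script was tested on simulated data. The SE is the log2 fold change divided by the square root of F. The biological coefficient of variation was 4.88%. Counting error adds to it and weighs most for the members with few counts.

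Named are Mfn2, up to 4 largest rises and falls per subunit among called members with separated groups, the 3 highest and 3 lowest by FPKM, the 2 smallest p in each list, and members placed by role. Members called in every setting, pairs of overlapping genes and the genes of such pairs were named after their values were seen. Other marker lists, of fibroblasts (7 of 11 tested higher, 3 lower), osteoblasts (1 and 5 of 6), endothelium (2 and 1 of 6), pericytes (1 and 4 of 8), skeletal muscle (2 and 0 of 8), adipocytes (1 and 0 of 3), erythroid cells (0 and 0 of 2) and immediate-early genes (9 and 5 of 15), were summarised in the same way. The members, lists and settings were chosen with earlier results of these data known.

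Alternatives were DESeq2 1.42.0, voom in limma 3.58.1, other scaling factors, other filters, a test against a 1.2-fold change, limma on log2 FPKM with a pseudocount of 1 or 0.1 where mean FPKM reached 1, removal of a length trend, a replicate block, each library left out, and other bounds of the list. Annotation and promoters are of GRCm38, the preceding build, and were matched by symbol.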

Additional observations from a re-analysis of the deposited data

How the results depend on the processing

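The counts of members called were 32 higher and 7 lower in the main fit, 21 and 5 in the large subunit and 11 and 2 in the small. With upper-quartile factors they were 21 and 11 (large 13 higher, small 5 lower), with total counts alone 11 and 25 (large 8 and 16, small 3 and 9), and in a test against a 1.2-fold change 11 and 1 (large 8 and 0, small 3 and 1; edgeR's glmTreat, where the 0 is also 0 at an unadjusted p under 0.05). On log2(FPKM + 1) they were 12 and 28 (large 8 and 17, small 4 and 11), on log2(FPKM + 0.1) 12 and 27 (large 8 and 16, small 4 and 11) and on unfiltered log2(FPKM + 1) 9 and 22 (large 6 and 14, small 3 and 8). Of all genes tested, 39% were called against a 1.2-fold change, and 74.1%, 73.8% and 42% in these 3 fits on FPKM. In the same order, 46.5%, 28.1%, 28.1% and 27% of those calls were upward. DESeq2 gave 3 lower members (large 2, small 1), where 47.4% of all genes tested were called and 50.6% of those calls were upward. Leaving out 1 library at a time gave 26 to 36 higher and 2 to 8 lower members, 18 to 23 and 1 to 5 in the large subunit and 8 to 13 and 1 to 3 in the small. In these fits 56.7% to 62.2% of all genes tested were called, and 49% to 50.3% of those calls were upward.

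The median log2 fold change of the large subunit was 0.056 with upper-quartile factors and turned to −0.062 with total counts alone, −0.064 on log2(FPKM + 1), filtered or not, and −0.072 on log2(FPKM + 0.1). That of the small subunit turned to −0.00019, −0.12, −0.098 and −0.12. Without 1 library the medians were 0.14 to 0.16 and 0.082 to 0.16. The members' share of all counts was lower in the knockout by 0.0085 percentage points and turned to 0.0026 higher with the 20 most abundant genes removed from the total. Without 1 library the difference was −0.010 to −0.0063, and that of the large to small ratio 0.021 to 0.050. Mrpl4, not called, turned to −0.073 with total counts alone, −0.057 on log2(FPKM + 1), filtered or not, and −0.072 on log2(FPKM + 0.1). With a replicate block on the number in the column name 33 members were higher and 7 lower. That fit called 60.5% of all genes tested, and 48.8% of those calls were upward. Same-numbered libraries did not deviate together (correlations −0.086, 0.055 and −0.095), so the numbers were not taken to pair them. The other members named for their change or level kept their sign. Depth limits the members with few counts: Mrps28, with 250 to 421 counts per library, had an SE of 0.13, and Mrps21, the member with the most, 0.047.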

Other observations

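Among the 78 members, the highest and the lowest log2 fold change were those of Mrpl14 and Mrps6, which were chosen after their values were seen. The log2 ratio of their counts within a library was −0.22, −0.079 and −0.087 in CRE1, CRE2 and CRE3 and −1.01, −1.19 and −1.19 in WT1, WT2 and WT3, a mean difference of 1.00 that does not depend on scaling. Both genes share exon bases with a neighbour that changed the same way, Tmem63b and Slc5a3.

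The log2 ratio of large to small subunit counts of the cytosolic ribosome was 0.603 to 0.611 in CRE libraries against 0.571 to 0.583 in WT libraries. The groups were apart there, unlike those of the mitochondrial ribosome, and the difference between the ribosomes was not tested. The log2 ratio of the 78 members to the 13 mitochondrially encoded transcripts was −3.25, −3.37 and −3.44 for CRE1 to CRE3 and −3.52, −3.49 and −3.51 for WT1 to WT3.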
